A study of Mus musculus with 34 samples.

Results

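The genes of the cytosolic ribosomal proteins were followed in the limb buds of *Hnrnpk* knockout mouse embryos. They were chosen by symbol, as genes named *Rps* or *Rpl* with a digit, together with *Rplp0*, *Rplp1*, *Rplp2* and *Rpsa*. Of 22040 protein-coding genes in the table, 105 had such a name. The 10 *Rps6k* genes, which encode kinases, were dropped, as were 9 genes named as pseudogenes and 3 genes with a mean FPKM under 0.5 over the 6 libraries. This left 83 genes, of which 31 encode proteins of the small ribosomal subunit and 46 proteins of the large subunit. The other 6 were the paralogues *Rps27l*, *Rps27rt*, *Rpl22l1*, *Rpl36al* and *Rpl7l1*, and *Rps19bp1*, which encodes a binding partner of a ribosomal protein. *Fau* and *Rack1*, which also encode ribosomal proteins, carry other names and were described apart.

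RNA was taken from limb bud cells at embryonic day E11.5 and sequenced as stranded mRNA libraries in 3 biological replicates of wild-type (WT) embryos and 3 of conditional knockout (CKO) embryos. The CKO genotype was *Prrx1-Cre;Hnrnpk* fl/fl, in which exons 4 to 7 of *Hnrnpk* lie between loxP sites and are removed by a recombinase driven in limb bud mesenchyme and calvarium. *Hnrnpk* encodes an RNA- and DNA-binding protein. The whole bud was used, so cells in which the driver is silent, such as the apical ectodermal ridge and blood, were in the RNA of both groups, and the driver is less complete in the hindlimb. The labels call the control genotype *Hnrnpk* WT and do not say whether it carries the Cre or floxed alleles, nor how many embryos made up a library.

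Ribosomal proteins bind ribosomal RNA and form the small subunit, which decodes the mRNA, and the large subunit, which joins amino acids. Their genes are among the most highly transcribed in growing tissue. Most of their mRNAs begin with a C followed by a run of pyrimidines, the terminal oligopyrimidine tract, through which translation of the whole family is set together by growth signals. Some of the proteins also bind MDM2, the ubiquitin ligase of p53, and mutations in several of the genes give skeletal defects or anaemia in mice or humans.

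The terminal oligopyrimidine tract lies at the start of the transcript, and this start is shown for the members on which the results below turn. RefSeq start sites (GRCm38.p6) were matched for 63 of the 83 genes, and each line gives the 30 bases around the start, 5′ to 3′ on the gene's strand, with the longest run of C and T that touches the 5 bases on either side of the start in capitals (the upstream one where lengths are equal).
*Rps27* (chr3:90213634-90213663, minus strand): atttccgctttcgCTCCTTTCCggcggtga
*Rps27rt* (chr9:114982725-114982754, minus strand): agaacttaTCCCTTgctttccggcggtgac
*Rps27l* (chr9:66946071-66946100, plus strand): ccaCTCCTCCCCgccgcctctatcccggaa
*Rps12* (chr10:23787195-23787224, minus strand): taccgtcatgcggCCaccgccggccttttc
*Rpl38* (chr11:114668565-114668594, plus strand): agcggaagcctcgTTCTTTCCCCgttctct
*Rpl7a* (chr2:26910792-26910821, plus strand): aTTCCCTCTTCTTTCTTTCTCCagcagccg
*Rpl22l1* (chr3:28805493-28805522, plus strand): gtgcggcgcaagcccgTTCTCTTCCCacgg
The run was 21 bases long in *Rpl7a*, 10 in *Rpl38* and *Rpl22l1*, 9 in *Rps27* and *Rps27l*, 6 in *Rps27rt* and 2 in *Rps12*. A run of at least 6 was found in 30 of the 63 members (47.6%), against 21.0% of all 27025 RefSeq start windows. The start base itself was C in 22 of the 63 members (34.9%), against 16.2% of all windows. From 250 bases before to 50 bases after the start, on either strand, CCGGAAG was found in 38.1% of the 63 members against 9.12% of all windows, CTTTCC in 49.2% against 26.3%, and AAGATGGC in 7.94% against 2.88%. CTTTCC can lie inside a pyrimidine run and so is not independent of it. These are matches of letters around annotated starts, and a start that RefSeq places some bases away from the one used in the limb bud shifts the window.

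Within the *Rps27* family, the coding sequence decides which reads can be assigned to which gene. The first 60 coding bases (GENCODE vM21 transcripts) are shown for the 3 genes, with bases that differ from *Rps27* in capitals.
*Rps27*: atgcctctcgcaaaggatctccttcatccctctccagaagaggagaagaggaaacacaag
*Rps27rt*: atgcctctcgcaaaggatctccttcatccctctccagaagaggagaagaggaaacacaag
*Rps27l*: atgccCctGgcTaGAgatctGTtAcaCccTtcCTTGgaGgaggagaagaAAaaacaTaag
Over the whole coding sequence, *Rps27rt* was identical to *Rps27* at 252 of 252 bases, whereas *Rps27l* differed at 60 (76.2% identity). *Rpl36al* was 87.7% identical to *Rpl36a*, *Rpl22l1* was 70.2% identical to *Rpl22* and *Rpl7l1* was 57.3% identical to *Rpl7*. Reads within the coding sequence can therefore separate *Rps27l* from *Rps27*, and cannot separate *Rps27rt* from *Rps27*.

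The authors' table gives FPKM, fragments scaled to the exon length of a gene and to a divisor for each library, which was not its plain read total. Multiplied by the merged exon lengths of GENCODE vM21, between 94.2% and 94.8% of low values came out as whole reads within 0.1 reads, which gave between 17143052 and 24627747 reads per library and between 674533 and 1513895 reads on the 83 genes. *Hnrnpk*, the targeted gene, had an FPKM of 193, 195 and 185 in the WT libraries and 127, 142 and 135 in the CKO libraries, lower in each CKO library than in any WT library. All 11 limb mesenchyme markers (*Prrx1*, *Prrx2*, *Msx1*, *Msx2*, *Twist1*, *Lmx1b*, *Tbx5*, *Tbx4*, *Pitx1*, *Hand2* and *Fgf10*) were present in both groups. The WT and CKO libraries of one replicate number deviated from their group means together, so values are also given within each number, although its meaning is given neither in the labels nor in the methods. Values of 3 libraries are listed in the order of their replicate numbers throughout.

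The mean FPKM of the 83 genes had a median of 269 and reached from 0.607 (*Rpl36al*) to 1388 (*Rps3a1*), against a median of 7.07 for the 12305 genes tested. Of the 83 genes, 71 had a mean above 100 and 6 above 1000. The highest were *Rps3a1*, *Rplp0*, *Rpl23a*, *Rplp1* and *Rpl8*. *Rplp0*, the stalk protein on which *Rplp1* and *Rplp2* dimers sit, had 1076, 1263 and 1114 in the WT libraries and 932, 1830 and 1499 in the CKO libraries. These levels are per exon length, and the merged exon length of a gene (between 374 and 6270 bases over the 83 genes) counts every annotated isoform.

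In CKO limb buds, none of the 83 genes changed past the adjusted threshold, although 79 had a log2 fold change above 0 and 4 below. The comparison was made with limma on log2(FPKM + 0.1), adjusted over all 12305 tested genes by the Benjamini-Hochberg method, and it called 0 of the 83 members at an adjusted *p* value of 0.05, where 0.0650% of all tested genes were called. At an unadjusted *p* value of 0.05 limma called 1 member, *Rpl36al*, against 8.31% of all tested genes. The median log2 fold change of the members was 0.26, which is 1.20-fold, against 0.00 for all tested genes, of which 50.9% lay above 0 (95.2% of the members). The values of all tested genes are largely set by the scale of the deposited FPKM, which already held the libraries nearly level. The median standard error of a member was 0.30, larger than the median change. With the replicate number as a block, 1 member was called (*Rps27l*, higher in CKO), against 1.13% of all tested genes called higher.

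**Figure D1:**
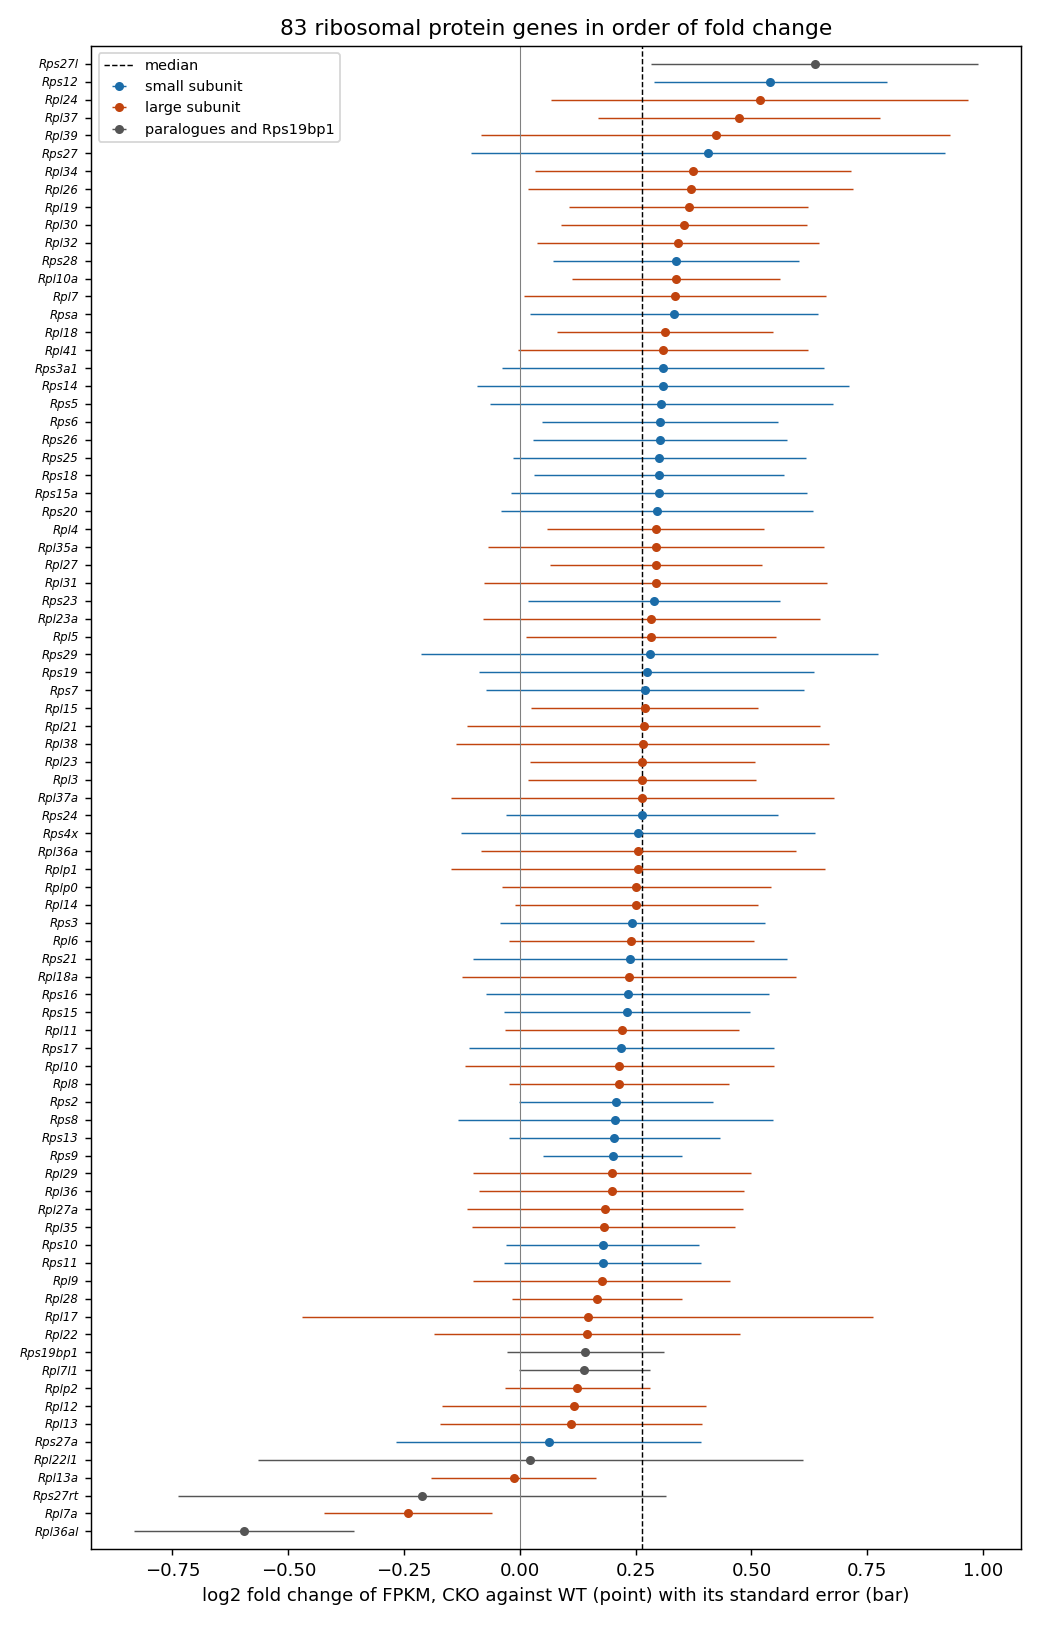
The log2 fold change of FPKM, CKO against WT (horizontal axis, points) with its limma standard error (bars), for each of the 83 genes in order of fold change; colours mark the subunit and the dashed line the median of 0.26. Points of 79 genes lie above 0, and the median standard error of 0.30 exceeds the median change.

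The spread between libraries of one group was shared by nearly the whole family. Measured as each gene's deviation from its mean over 6 libraries on the log2 scale, the median of the 83 genes was -0.37, 0.14 and -0.13 in the WT libraries, in the order of their numbers, and -0.49, 0.56 and 0.32 in the CKO libraries. The same median over all tested genes stayed between -0.02 and 0.01, which the scale of the deposited FPKM largely sets. Of the 83 genes, 63 had their lowest value in CKO replicate 1 and 13 in WT replicate 1, and 71 had their highest value in CKO replicate 2. Replicate 1 lay below both other replicates in both groups for 64 members (30.9% of all tested genes). The groups overlapped for all but 3 members. *Rps9* and *Rps12* were higher and *Rpl36al* was lower in every CKO library than in any WT library, where 5.63% of all tested genes were separated upward and 8.86% downward.

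**Figure D2:**
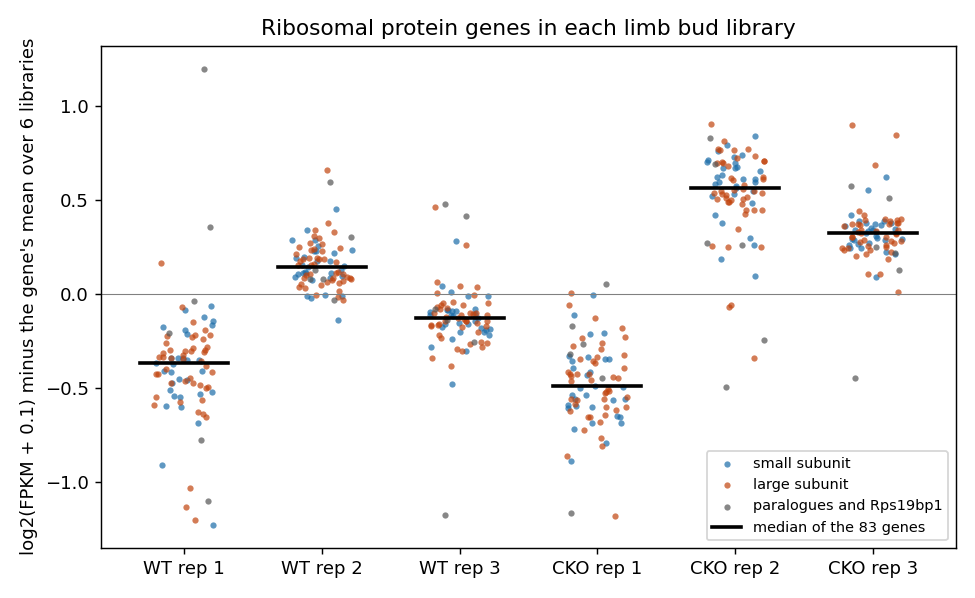
Each point is one of the 83 genes in one library, as log2(FPKM + 0.1) minus that gene's mean over the 6 libraries; black bars are medians and colours mark the subunit. The family sits low in replicate 1 of both groups (medians -0.37 and -0.49) and high in CKO replicates 2 and 3 (0.56 and 0.32).

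Within a replicate number, the direction of CKO against WT was not the same for all numbers. In replicate 1 the median difference was -0.08, with 15 of the 83 genes higher in CKO (47.1% of all tested genes). In replicate 2 it was 0.42, with 77 higher (50.2% of all tested genes), and in replicate 3 it was 0.45, with 82 higher (50.3% of all tested genes). In replicates 2 and 3, both CKO values lay above both WT values for 74 members, against 29.3% of all tested genes. In a comparison of replicates 2 and 3 alone, chosen after the data were seen, limma called 20 members, all higher in CKO, where 7.05% of all tested genes were called higher. The median log2 fold change was then 0.44, against 0.01 for all tested genes. The number called thus went from 0 to 20 when replicate 1 was left out in both groups, and leaving out 1 library moved the median of 0.26 to 0.12 and 0.40 when WT replicate 1 or 2 was left out, and to 0.57, 0.05 and 0.17 when CKO replicate 1, 2 or 3 was.

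**Figure D3:**
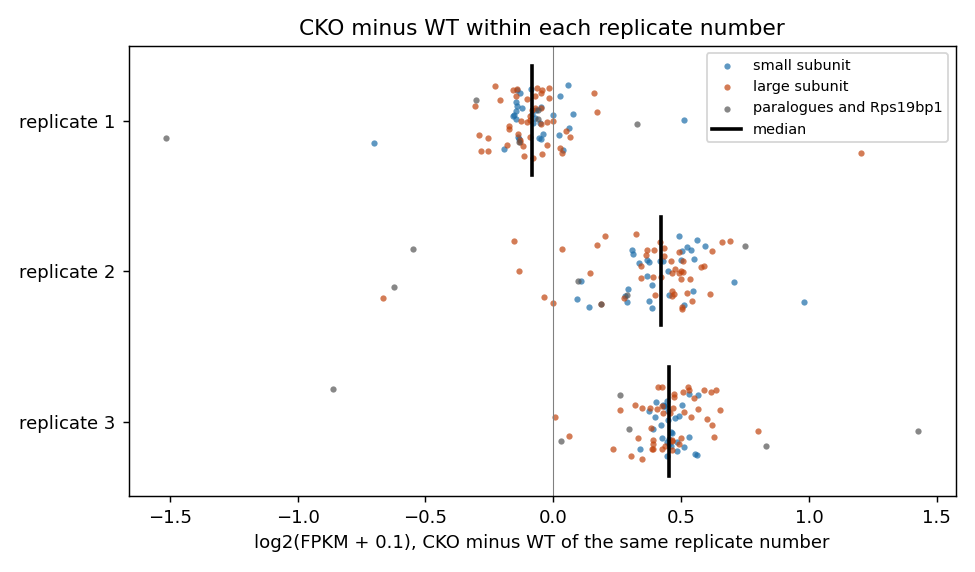
The difference in log2(FPKM + 0.1) between the CKO and the WT library of one replicate number (horizontal axis) for each of the 83 genes, with black bars at the medians. The medians are -0.08 in replicate 1, 0.42 in replicate 2 and 0.45 in replicate 3.

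Transcripts of red blood cells moved with the family across the CKO libraries, and only in part across the WT libraries. Summed over the 83 genes, the FPKM was 22960, 32428 and 26716 in the WT libraries and 21366, 43398 and 36931 in the CKO libraries, in the order of their numbers. The globin genes took 13.7%, 19.5% and 20.6% of the summed FPKM in WT and 11.7%, 32.4% and 23.5% in CKO, so that CKO replicate 1 was the lowest and CKO replicate 2 the highest library in both measures. Of 14 erythroid markers (8 globin genes, *Alas2*, *Slc4a1*, *Epor*, *Klf1*, *Gata1* and *Ahsp*), 13 were tested and had a log2 fold change above 0 (50.9% of all tested genes), with a median of 0.37, and none was at 0 in any library. None of the 13 passed the adjusted threshold in limma (0.0650% of all tested genes). At an unadjusted *p* of 0.05 limma called 0 without the block and 3 with it (8.31% and 18.4% of all tested genes). The groups overlapped for all 13, where 5.63% of all tested genes were separated upward and 8.86% downward. The 5 tested erythroid markers that are not globins summed to 419, 440 and 482 in WT and to 356, 869 and 645 in CKO. Over these 5 markers, replicates 2 and 3 differed from replicate 1 by a median of -0.08 in WT and 0.96 in CKO. The same medians were 0.19 and 1.24 over the 13 markers, and 0.37 and 0.92 over the 83 genes. Within replicates 1, 2 and 3, the median difference of CKO and WT over the 13 markers was -0.28, 0.94 and 0.45. The 11 limb mesenchyme markers summed to between 423 and 462 in WT and between 359 and 416 in CKO, with 3 above and 8 below 0. The part of blood cells in the members' differences was not tested, and in such bulk libraries more cells of a type and more RNA per cell cannot be told apart.

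**Figure D4:**
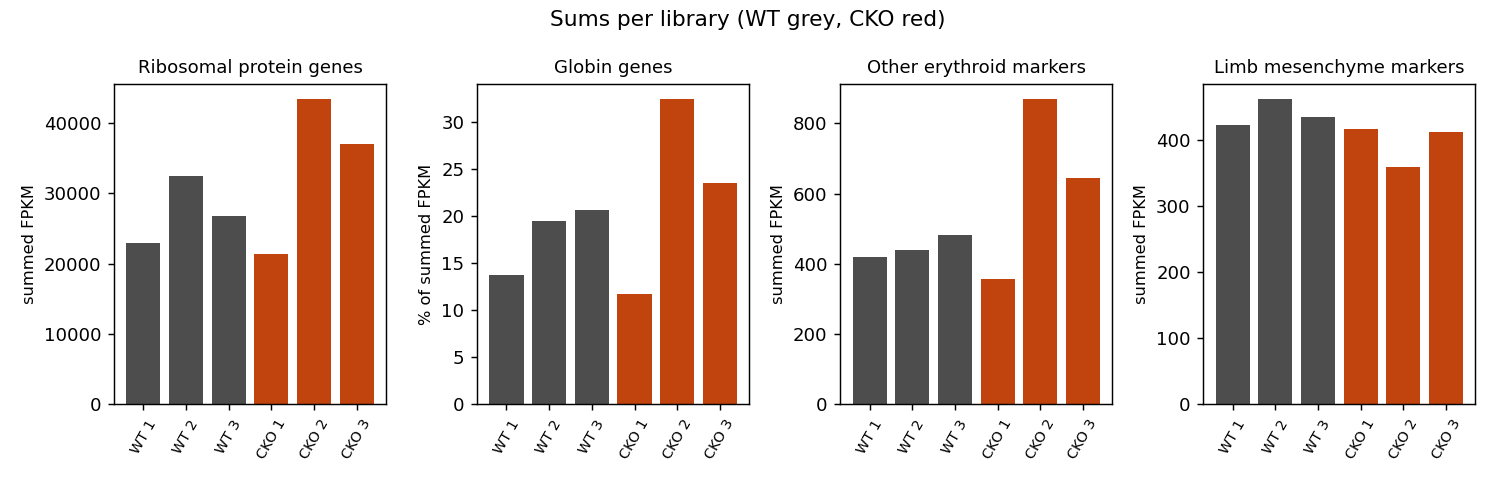
Bars give, for each of the 6 libraries, the summed FPKM of the 83 ribosomal protein genes, the globin genes' share of the summed FPKM, and the summed FPKM of 5 other erythroid and 11 limb mesenchyme markers (WT grey, CKO red). The ribosomal protein sum and the globin share are both lowest in CKO replicate 1 and highest in CKO replicate 2, at 43398 and 32.4%.

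As a share of the summed FPKM of a library, the 83 genes held a mean of 9.01% ± 0.878 over the WT libraries and of 9.42% ± 1.10 over the CKO libraries (SD of 3), a difference smaller than either spread (exact two-sided permutation *p* = 0.9, where 3 libraries against 3 cannot go below 0.1). With the globin genes taken out of the sum, the share was 11.0% ± 1.37 over the WT against 12.4% ± 2.81 over the CKO libraries (SD of 3, exact permutation *p* = 0.5). Removing the globin genes and rescaling each library lowered the median of all tested genes to -0.10 and that of the members to 0.16. On the deposited scale the median of all tested genes was already 0.00, and the rescaling moved it away from there. The rescaling applies the same factor to every gene of a library. The distance of 0.26 between these medians was therefore all but fixed in advance, and nothing is read from it. Quantile normalization, which gives the libraries 1 distribution, left a median of 0.09 and 63 of the 83 members above 0, against 79 with the FPKM as deposited. In replicates 2 and 3 alone with globin genes removed, 10 members were higher and 2 lower (*Rpl36al* and *Rpl7a*), where 2.56% of all tested genes were called higher and 16.6% lower. The median of all tested genes lay at -0.17 in that comparison, against 0.01 before the removal. Both counts of members depend on this shift of the whole scale.

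The values of the small and large subunit genes were close to each other. All 31 small subunit genes and 44 of the 46 large subunit genes had a log2 fold change above 0 (50.9% of all tested genes), with medians of 0.27 and 0.26. None of either passed the adjusted threshold or an unadjusted *p* of 0.05 in limma without the block, where 8.31% of all tested genes passed the latter. The summed FPKM of the large subunit was between 1.33 and 1.36 times that of the small subunit in each of the 6 libraries. With the replicate block, 5 genes of each subunit had an unadjusted *p* value under 0.05 in limma, against 18.4% of all tested genes, a larger share than in either subunit. The medians within replicates 1, 2 and 3 were -0.08, 0.42 and 0.45 for the small and -0.09, 0.45 and 0.46 for the large subunit.

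Among the small subunit genes, *Rps12* had the highest log2 fold change. *Rps12*, which encodes a protein of the small subunit's head region, had an FPKM of 124, 129 and 102 in the WT libraries and 131, 254 and 151 in the CKO libraries. Each CKO value lay above each WT value, but CKO replicate 1 by little, and the log2 fold change of 0.54 (SE 0.25) had a limma adjusted *p* of 0.635, and of 0.0977 with the replicate block. Without CKO replicate 2, its highest library, the log2 fold change was 0.26. *Rps9*, an early-binding protein of the small subunit, had 272, 282 and 244 in WT and 284, 304 and 330 in CKO, the other upward separation without overlap, with a log2 fold change of 0.20 (adjusted *p* in limma 0.801). *Rps6*, the small subunit protein phosphorylated by S6 kinases, had 604, 664 and 540 in WT and 529, 963 and 798 in CKO. Here, as in most of the family, CKO replicate 1 was the lowest library and CKO replicates 2 and 3 were the highest. *Rps27a*, which is made as a fusion with ubiquitin, had the lowest log2 fold change of the small subunit, 0.06, with 173, 200 and 169 in WT and 106, 269 and 233 in CKO.

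Among the large subunit genes, *Rpl24*, *Rpl37* and *Rpl39* had the highest and *Rpl7a* and *Rpl13a* the lowest log2 fold changes. *Rpl37* had an FPKM of 143, 206 and 148 in WT and 143, 317 and 257 in CKO, equal between the groups in replicate 1 and 0.62 and 0.80 higher on the log2 scale in CKO in replicates 2 and 3 (log2 fold change 0.47, SE 0.30, adjusted *p* in limma 0.747). *Rpl39*, one of the smallest ribosomal proteins, which lines the exit tunnel, had 67.4, 175 and 144 in WT and 76.0, 243 and 222 in CKO, and its replicate 1 libraries of both groups lay below all others. *Rpl7a* had 200, 224 and 164 in WT and 163, 141 and 192 in CKO, so the groups overlapped, and it differed from most of the family in that CKO replicate 2 was its lowest library (log2 fold change -0.24, SE 0.18, adjusted *p* in limma 0.803). *Rpl13a* reached from 21.3 in replicate 1 to 29.6 in replicate 2 of WT and from 20.5 to 29.6 in the same replicates of CKO, and within a number the groups differed by at most 0.05 on the log2 scale. *Rpl24*, known from the Belly spot and tail mouse, stood at a mean FPKM of 0.826, just above the limit of 0.5, with between 5 and 35 reads per library, and 47.0% of its exon bases are shared with the gene *Gm28037* on the same strand. Its fold change of 0.52 on the log2 scale (SE 0.45) therefore rests on few reads.

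*Rps27l*, a paralogue of *Rps27* known as a target of p53, had the largest log2 fold change of all 83 genes. Its FPKM was 63.6, 115 and 91.2 in the WT libraries and 79.9, 194 and 162 in the CKO libraries. Over all libraries the groups overlapped, because CKO replicate 1 lay below WT replicates 2 and 3, but within each replicate number CKO was higher, by 0.33, 0.75 and 0.83 on the log2 scale. The log2 fold change of 0.64, or 1.55-fold, had a standard error of 0.35 and a limma adjusted *p* of 0.703. It was 0.38 without CKO replicate 2, 0.41 without WT replicate 1 and 1.02 without CKO replicate 1. With the replicate number as a block the adjusted *p* was 0.0266. In settings added after the data were seen, it stayed under the threshold with the block after globin removal (0.0112) and after median-ratio scaling (0.0210). In replicates 2 and 3 alone, also added then, it was 0.000467, with CKO higher by 0.79 on the log2 scale. All of these reuse the same libraries. As a share of the summed FPKM of the 83 genes, a measure chosen after the data were seen, *Rps27l* had 0.277%, 0.355% and 0.342% in WT and 0.374%, 0.447% and 0.440% in CKO, with no overlap (exact two-sided permutation *p* = 0.1, the smallest that 3 against 3 allows). The gene was picked as the largest of the 83 fold changes in these same libraries, so this *p* value is no separate evidence. No near copy of its coding sequence was found elsewhere in the genome.

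*Rps27* itself had 60.7, 180 and 173 in WT and 86.7, 233 and 219 in CKO, higher in CKO within each number by 0.51, 0.37 and 0.34, with a log2 fold change of 0.41 (SE 0.51), with an adjusted *p* of 0.882 in limma and of 0.109 once replicates were blocked. *Rps27rt*, on another chromosome, had 150, 80.9 and 28.9 in WT and 52.6, 55.3 and 77.9 in CKO. Its CKO value was highest in the number where its WT value was lowest, so no direction can be read from its log2 fold change of -0.21 (SE 0.53). Since both genes encode the same 252 bases, the way reads were divided between them is uncertain, and their sum was 211, 261 and 202 in WT and 139, 288 and 297 in CKO.

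**Figure D5:**
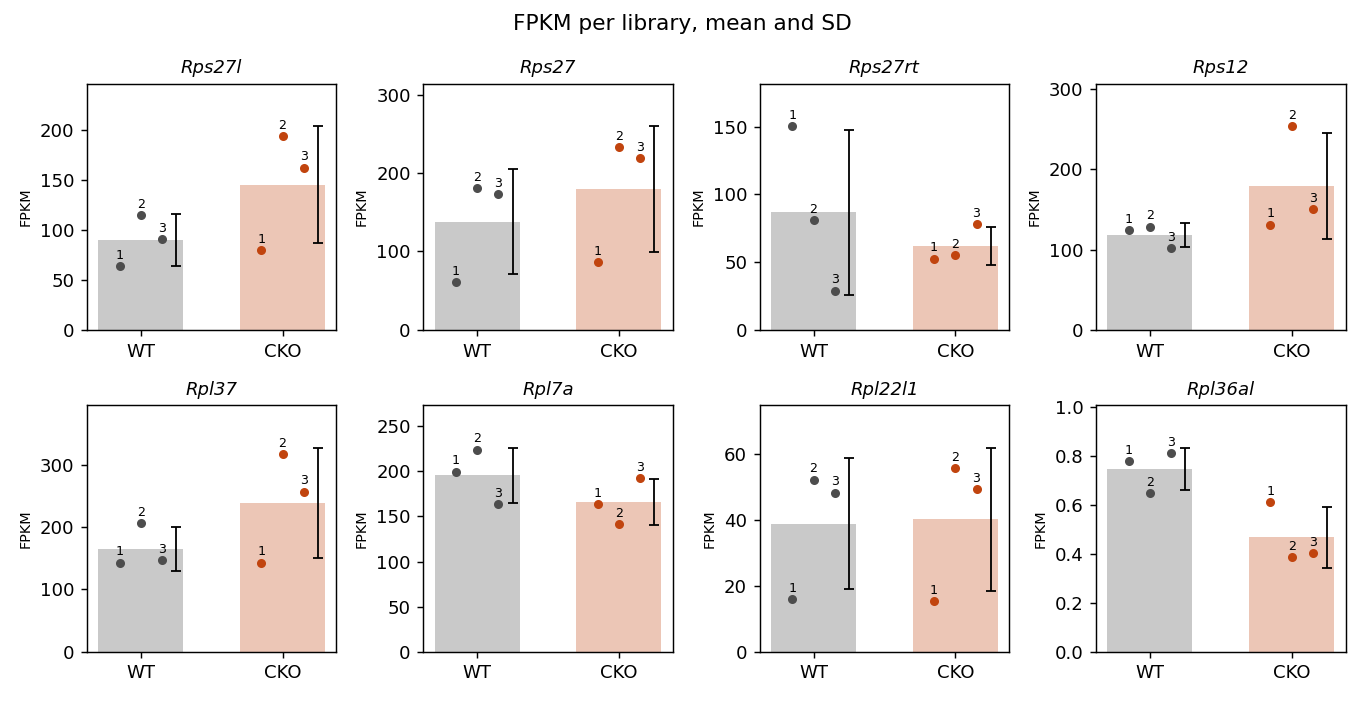
FPKM of 8 of the genes in WT (grey) and CKO (red); points are libraries with their replicate number, bars are means and error bars are SD (n = 3). *Rps27l* is higher in CKO within each number, *Rps27rt* shows no order, and in *Rpl36al* all 3 CKO values lie below all WT values.

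The other paralogues did not share the family's direction uniformly. *Rpl36al* had 0.779, 0.648 and 0.813 in WT and 0.613, 0.386 and 0.403 in CKO, each CKO value below each WT value, at a log2 fold change of -0.60 (SE 0.24), with an adjusted *p* of 0.564 in limma and of 0.220 once replicates were blocked. These values rest on 10 to 24 reads per library, and 24.5% of its exon bases are shared with *Gm49383* on the same strand. Its partner *Rpl36a* was at 109, 156 and 134 in WT and 89.8, 233 and 186 in CKO. *Rpl22l1*, which can stand in for *Rpl22* in the large subunit, had 16.1, 52.3 and 48.4 in WT and 15.4, 56.0 and 49.5 in CKO, and its log2 fold change was 0.02. Its difference was between the replicate numbers and not between the groups, since replicates 2 and 3 exceeded replicate 1 by 1.64 on the log2 scale in WT and by 1.76 in CKO. The ratio of the FPKM of *Rpl22l1* to that of *Rpl22* was likewise lowest in replicate 1 of both groups, at -2.30 and -2.29 on the log2 scale, against -1.57 to -1.29 in the other libraries. *Rpl7l1* had a log2 fold change of 0.14, its mean being 52.5 ± 2.12 over the WT and 58.2 ± 8.59 over the CKO libraries (SD of 3), and *Rps19bp1* also had 0.14. Below the limit of 0.5, *Rpl39l* had a mean FPKM of 0.141 (0 to 6 reads per library), *Rpl3l* had 0.0222 and *Rpl10l* was listed at 0 in all libraries.

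*Rpl5*, *Rpl11*, *Rpl23* and *Rps7*, which encode 4 of the ribosomal proteins known to bind MDM2, had log2 fold changes between 0.22 and 0.28, close to the family's median, and none passed the adjusted threshold, or an unadjusted *p* of 0.05, in limma with or without the replicate block. *Rpl5*, which with *Rpl11* and 5S ribosomal RNA forms a particle that inhibits MDM2, had an FPKM of 233, 304 and 275 in WT and 217, 437 and 371 in CKO. *Rpl11* had 186, 255 and 203 in WT and 174, 328 and 266 in CKO. For these 4 genes CKO was lower than WT in replicate 1 and higher in replicates 2 and 3.

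Among the genes whose mutation is known to give skeletal, pigment, spleen or blood phenotypes (*Rps19*, *Rps6*, *Rpl24*, *Rpl27a*, *Rpl38*, *Rps20* and *Rpsa*), log2 fold changes lay between 0.18 and 0.52 and none passed the adjusted threshold in limma with or without the block (at an unadjusted *p* of 0.05, 0 without it and 1, *Rps20*, with it, against 8.31% and 18.4% of all tested genes). *Rpl38*, whose loss of an allele alters the axial skeleton in the Tail short mouse, had 182, 309 and 230 in WT and 147, 438 and 349 in CKO. It was lower in CKO by 0.31 on the log2 scale in replicate 1, and higher by 0.50 and 0.60 in replicates 2 and 3 (log2 fold change 0.26, SE 0.40, adjusted *p* in limma 0.904). *Rps19*, mutated in Diamond-Blackfan anaemia, had 54.6, 101 and 77.7 in WT and 52.8, 132 and 109 in CKO. *Rpsa*, mutated in isolated congenital asplenia, had 535, 673 and 612 in WT and 480, 1100 and 832 in CKO.

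Genes that work with the family were described by their counts. Of 40 genes for ribosome assembly and RNA polymerase I, 38 had a log2 fold change above 0, against 50.9% of all tested genes, with a median of 0.24. None passed the adjusted threshold in limma, where 0.0650% of all tested genes did. At an unadjusted *p* of 0.05 limma called 7, against 8.31% of all tested genes. Every CKO value lay above every WT value for 12 of the 40, against 5.63% of all tested genes and 2 of the 83 members. The reverse held for 0 of the 40, against 8.86% of all tested genes. With the replicate block 1 of the 40 genes was called, against 1.13% of all tested genes called higher. It was *Utp20*, a factor of small subunit processing (adjusted *p* in limma 0.0266). It had 10.6, 6.96 and 7.77 in WT and 13.4, 12.6 and 11.3 in CKO, and the groups did not overlap. *Ncl*, the nucleolar protein nucleolin, had 141, 124 and 124 in WT and 156, 181 and 190 in CKO, also without overlap. Replicates 2 and 3 differed from replicate 1 by a median of -0.16 in WT and 0.11 in CKO over these 40 genes, against 0.37 and 0.92 over the 83 ribosomal protein genes, a contrast that was not tested. Their median difference of CKO and WT was 0.03, 0.29 and 0.41 in replicates 1, 2 and 3. Of 13 other genes whose mRNAs are known to start with an oligopyrimidine tract, 12 had a log2 fold change above 0 (50.9% of all tested genes), with a median of 0.24. None passed the adjusted threshold in limma, and 1 had an unadjusted *p* under 0.05 (8.31% of all tested genes). The groups did not overlap for 5 of the 13 upward and 1 downward (5.63% and 8.86% of all tested genes). *Eef2*, the elongation factor that moves the ribosome along the mRNA, had 757, 671 and 635 in WT and 840, 824 and 847 in CKO. *Fau* and *Rack1* had log2 fold changes of 0.12 and 0.28. Of 77 genes for mitochondrial ribosomal proteins, a list added after the data were seen, 65 had a log2 fold change above 0 (50.9% of all tested genes), with a median of 0.14. Over these 77 genes, replicates 2 and 3 exceeded replicate 1 by a median of 0.16 in WT and 0.42 in CKO. Their median difference of CKO and WT was -0.06, 0.16 and 0.30 in replicates 1, 2 and 3. The pattern between replicates was thus not particular to the cytosolic family.

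The members were also split by the length of the pyrimidine run. The median log2 fold change was 0.26 for the 30 members with a run of at least 6 bases and also 0.26 for the 33 with a shorter one. *Rpl7a*, with the run of 21 bases shown above, had one of the lowest log2 fold changes, and *Rps12*, with a run of 2, the second highest. These lengths depend on where RefSeq places the start. In the window of *Rps12* a longer run of C and T lies downstream of the counted bases. Across the 83 genes, Spearman's rho between transcript length and the excess of replicates 2 and 3 over replicate 1 was -0.23 in WT and -0.22 in CKO, over genes that share the same libraries.

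Reads of this family are hard to place. Copies of the coding sequence with at least 95% identity over at least 90% of its length were found elsewhere in GRCm38 for 77 of the 83 genes, with a median of 5 copies per gene and up to 55, and 20 genes had at least 1 copy at 100% identity. The median log2 fold change was 0.27 for these 20 and 0.26 for the other 63. Exons of 28 members overlapped those of another gene on the same strand, such as small nucleolar RNAs inside ribosomal protein genes. How the authors treated reads with several positions, and whether the counting used the strand, is not given in the sources used here, so the level of a gene with copies is uncertain.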

How the data were processed

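The mRNA libraries of 3 WT and 3 CKO limb bud samples (E11.5) were used, and samples of the other assays were not analysed here. The authors deposited FPKM per protein-coding gene, which were used as deposited. The submitters' processing notes name cutadapt 2.5, HISAT2 2.1.0, featureCounts 1.6.3, Bowtie2 2.11.1, MACS2 2.1.2 and mm10 without saying which served the RNA-seq. Reads were recovered from FPKM times the merged exon length (GENCODE vM21), for depth alone, which limits the genes with few reads. The divisors of CKO replicates 2 and 3 were 19146570 and 23848048, below the 21193398 and 24627747 reads recovered there. In the other libraries the divisor was the larger number. Factors for scaling by median ratios lay between 0.9865 and 1.008, so the deposited FPKM were already nearly level between libraries. How the divisor was set was not tested.

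The 12305 genes whose mean FPKM reached 0.5 were compared on log2(FPKM + 0.1), a scale that understates the change of low genes, with limma 3.58.1 in R 4.3.3 (lmFit, eBayes with a trend, two-sided, Benjamini-Hochberg over all genes tested). The limma *p* values judge the difference between the groups against the spread between these libraries. Each gene's variance was drawn toward a trend over all genes tested. No set test was made, since the members are not replicates. The members, the gene lists and the comparisons were chosen with earlier results of these data known.

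The replicate numbers in the labels were taken to pair the libraries, because the deviations from the group means correlated between WT and CKO at 0.64, 0.44 and 0.27 for numbers 1, 2 and 3 over the tested genes, all above 0.1. WT replicate 2 correlated with CKO replicate 3 at 0.49, and WT replicate 3 with CKO replicate 2 at 0.31. Each was above the value of that WT library within its own number. The pairing therefore rests on number 1, and that of numbers 2 and 3 is uncertain. The model with the replicate block was an alternative.

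Genes were named if they passed the adjusted threshold with or without the block, were among the 6 largest or 6 smallest log2 fold changes, the 5 highest levels or the nearest to the limit of 0.5, were paralogues with their partners, listed MDM2-binding or disease genes, or had groups that did not overlap. Genes of the other lists were named after their values were seen. Copies were sought with blastn and alignments made with Biopython 1.88. RefSeq windows came from the GRCm38.p6 table. As alternatives, the pseudocount was set to 0.5 or 1, the filter was removed or raised to 1, libraries were rescaled by median ratios, by quantiles or after removal of the globin genes, the trend was dropped, the replicate number was blocked, and each library was left out. Replicates 2 and 3 alone, with and without globin genes, and the block after globin removal or median-ratio scaling were added after the data were seen. Some genes of the lists are not reported here.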

Additional observations from a re-analysis of the deposited data

How the results depend on the processing

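The number of ribosomal protein genes called higher in CKO, 0 with the FPKM as deposited, was 1 with the replicate block, 1 with the block after globin removal, 1 with the block after median-ratio scaling, 20 in replicates 2 and 3 alone and 10 there without globin genes. The number called lower was 0 in each of these but the last, where it was 2. Both counts stayed at 0 in limma under every other alternative, with each library left out included. The median log2 fold change of the 83 genes stayed above 0 throughout, between 0.05 and 0.57 with 1 library left out. The difference in the share of summed FPKM stayed above 0 too, at 0.41 percentage points with the FPKM as deposited and between 0.02 and 1.04 with 1 library left out, and the replicate block changed no call among the ribosomal protein genes but that of *Rps27l*. The cause of these moves was not tested. Of the 33 named genes, 13 changed sign under at least 1 alternative, and none of them was called in either direction there. Under quantile normalization the log2 fold change became -0.0014 for *Rpl22*, -0.069 for *Rpl22l1*, -0.045 for *Rpl23a*, -0.083 for *Rpl8*, -0.013 for *Rplp1* and -0.098 for *Rps27a*. After globin removal, with or without the replicate block, it became -0.084 for *Rpl22l1* and -0.045 for *Rps27a*. In replicates 2 and 3 alone it became 0.0041 for *Rpl13a* and 0.44 for *Rps27rt*, and there without globin genes -0.11 for *Rpl22l1* and 0.26 for *Rps27rt*. With 1 library left out it ranged from -0.14 to 0.12 for *Rpl13a*, from -0.093 to 0.49 for *Rpl22*, from -0.52 to 0.61 for *Rpl22l1*, from -0.025 to 0.51 for *Rpl27a*, from -0.027 to 0.66 for *Rpl36a*, from -0.052 to 0.73 for *Rpl38*, from -0.036 to 0.68 for *Rplp1*, from -0.025 to 0.64 for *Rps7*, from -0.11 to 0.87 for *Rps27*, from -0.20 to 0.47 for *Rps27a* and from -0.85 to 0.33 for *Rps27rt*.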
